A study of Mus musculus with 4 samples.

Results

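The circadian clock of the liver acts on metabolism through output genes, and the 9 described here are transcription factors and effectors of that output: Dbp, Tef, Hlf, Nfil3, Ciart, Usp2, Wee1, Bhlhe40 and Bhlhe41. They were chosen by name, with earlier results of these data known, and matched by gene symbol. All 9 were found among the 19938 genes with a symbol on the arrays. All 9 were also among the 11963 genes whose mean level exceeded the 40th percentile, a log2 value of 3.34, so no member was lost to that filter. The data are 4 arrays of total RNA from mouse liver, with 1 array for each of WT and KO at 2 and at 8 months of age, and each array held a pool made from 3 pairs of mice. WT stands for the genotype given as WT SIRT6, and KO for SIRT6Co/Co ;Alb-Cre, a conditional allele of the chromatin deacetylase gene Sirt6 together with a Cre recombinase under the hepatocyte-active albumin promoter. The sources used here do not state the strain, sex, feeding state or time of day of collection, or whether the WT mice carried Cre or the conditional allele. The Sirt6 probe set was at 4.55 and 4.50 in WT and 4.54 and 4.46 in KO at 2 and 8 months, so it did not separate the genotypes, and the groups are called by their labels throughout.

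In hepatocytes the activators CLOCK and BMAL1 (the product of Arntl) bind E-boxes, with the letters CACGTG, and drive genes that include their own repressors and the output factors. DBP, TEF and HLF, the proline and acidic amino acid-rich (PAR) basic leucine zipper factors, activate genes through D-boxes such as TTATGTAA or TTACGTAA, and NFIL3 (E4BP4) represses through the same sites. In mouse liver Dbp and Nfil3 are known to cycle in nearly opposite phases, so the level of such a gene at a single time of collection depends on that time. CIART (CHRONO), BHLHE40 (DEC1) and BHLHE41 (DEC2) repress the CLOCK and BMAL1 complex, USP2 is a ubiquitin-specific protease, and WEE1 is the kinase that holds back entry into mitosis.

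The promoters are shown for the members that share the E-box letters and, as an example without them, for Nfil3. RefSeq promoters of build GRCm38.p6 were matched for 7 of the 9 members, 8 promoters in all, and the 250 bases before each gene start were searched on both strands for CACGTG and for TTATGTAA or TTACGTAA. CACGTG was found in 4 of the 8 promoters, those of Ciart, Bhlhe41 and both promoters of Tef, against 6.02% of 32851 promoters of that length. The promoters of Dbp, Hlf, Usp2 and Nfil3 held no copy in this window. Ciart held 3 copies, which began 116, 58 and 44 bases before the gene start, and 0.0609% of all promoters held 3 or more. Neither D-box form was found in these windows, and 0.931% of all promoters held at least 1 of the forms. The sequences below run 5′ to 3′ on the strand of the gene, with the E-box letters in capitals. They lie at chr3:95882229-95882478 (minus strand) for Ciart, chr15:81802423-81802672 and chr15:81811164-81811413 (plus strand) for the first and second promoter of Tef, chr6:145865421-145865670 (minus strand) for Bhlhe41 and chr13:52981040-52981289 (minus strand) for Nfil3.
Ciart: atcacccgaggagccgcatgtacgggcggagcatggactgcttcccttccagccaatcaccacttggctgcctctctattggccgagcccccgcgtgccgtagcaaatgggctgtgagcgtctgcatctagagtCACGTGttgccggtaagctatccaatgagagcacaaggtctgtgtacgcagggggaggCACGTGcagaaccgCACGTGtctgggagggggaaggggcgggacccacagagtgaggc
Tef, first: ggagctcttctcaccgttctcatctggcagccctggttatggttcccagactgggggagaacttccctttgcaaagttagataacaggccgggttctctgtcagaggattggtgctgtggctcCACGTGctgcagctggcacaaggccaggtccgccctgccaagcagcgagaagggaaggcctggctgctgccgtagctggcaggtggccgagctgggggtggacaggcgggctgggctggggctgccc
Tef, second: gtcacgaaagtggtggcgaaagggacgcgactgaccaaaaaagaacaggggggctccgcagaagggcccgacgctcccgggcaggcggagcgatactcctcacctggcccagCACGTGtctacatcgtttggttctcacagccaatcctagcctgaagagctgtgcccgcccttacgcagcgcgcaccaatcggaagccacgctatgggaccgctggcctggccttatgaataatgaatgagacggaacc
Bhlhe41: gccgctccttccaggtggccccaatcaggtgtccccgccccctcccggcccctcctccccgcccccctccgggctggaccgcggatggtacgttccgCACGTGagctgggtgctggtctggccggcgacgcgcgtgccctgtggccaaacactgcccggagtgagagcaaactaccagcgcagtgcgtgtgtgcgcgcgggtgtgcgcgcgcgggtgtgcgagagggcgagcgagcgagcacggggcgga
Nfil3: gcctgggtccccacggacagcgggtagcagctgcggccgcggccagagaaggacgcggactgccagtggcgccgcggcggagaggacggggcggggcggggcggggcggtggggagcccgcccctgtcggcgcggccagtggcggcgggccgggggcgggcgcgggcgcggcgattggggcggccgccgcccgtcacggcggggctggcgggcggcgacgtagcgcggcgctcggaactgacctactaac
Of the genes with these letters, Ciart and Tef fell in the KO-labelled arrays and Bhlhe41 did not pass, and of those without them Usp2 fell, Nfil3 rose and Dbp and Hlf did not pass, as given below. A match of letters is a description of the sequence and not of binding.

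Across the set, Ciart, Usp2, Wee1 and Tef fell and Nfil3 and Bhlhe40 rose in the KO-labelled arrays, while Dbp, Hlf and Bhlhe41 did not pass the test. For the test, limma fitted additive terms for genotype and age to all 11963 genes, with Benjamini-Hochberg adjustment at 0.05. Rose and fell are used only for genes past it. It called 6 of the 9 members, 2 higher and 4 lower, where it called 11.1% of all genes, 6.81% higher and 4.26% lower. Since the members were chosen with earlier results of these data known, this count beside that share is a description and not a test. The median difference over the 9 members was -0.19 at 2 months and -0.33 at 8 months on the log2 scale, beside 0.01 and 0.00 over all genes. With 1 pooled array per group, the p-values weigh a difference against departures from additivity of genotype and age. The gene itself gives 1 degree of freedom to this variance, and genes of similar level give a prior of 11.3. The p-values do not measure the spread between mice or between pools. In bulk tissue, fewer cells of a type and less RNA per cell cannot be told apart.

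**Figure D1:**
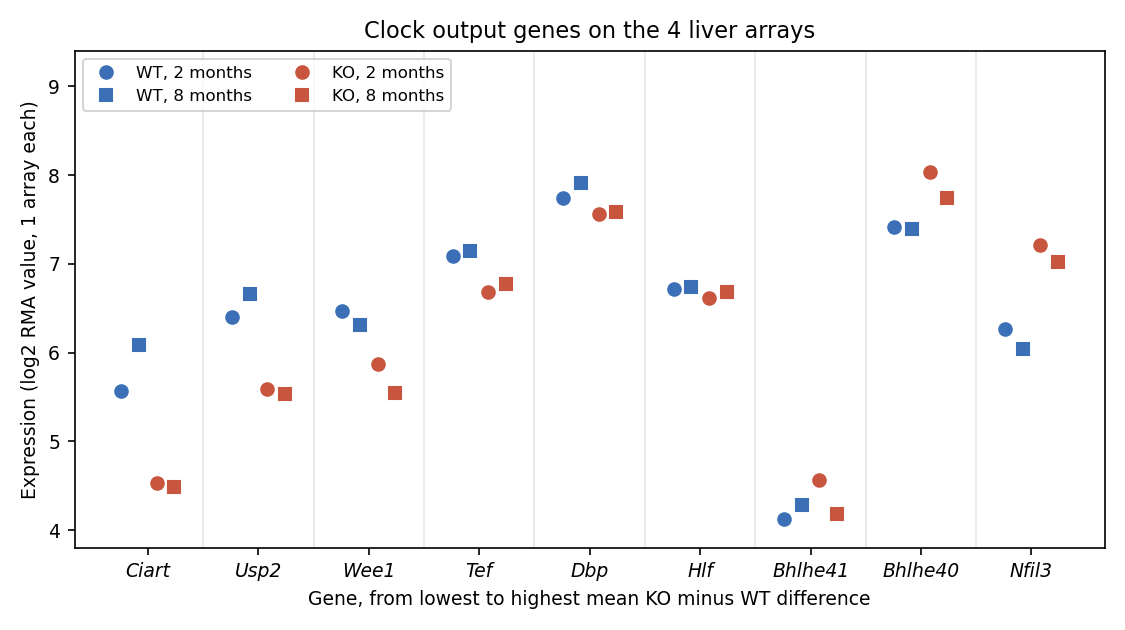
Log2 RMA values of the 9 clock output genes on each array, with WT in blue, KO in red, circles for 2 months and squares for 8 months. Genes run from the lowest to the highest mean KO minus WT difference, and only values of the same gene can be compared. The red symbols of Ciart lie at 4.53 and 4.49, below both blue ones at 5.57 and 6.08, and those of Nfil3 lie at 7.21 and 7.02, above both blue ones at 6.27 and 6.04.

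The PAR factors were all lower in the KO-labelled arrays, by small amounts. Tef, whose product activates D-box genes, read 7.09 and 7.15 in WT and 6.68 and 6.77 in KO at 2 and 8 months. Both KO values lay below both WT values, with differences of -0.41 and -0.37, and Tef fell by 0.39 on average (SE 0.09, limma adjusted p = 0.015). The call of Tef was lost under some settings: its adjusted p was 0.055 with no expression filter, and 0.063 when eBayes used no intensity trend.

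Dbp, the founding member of the PAR family and a classic marker of clock output in liver, read 7.75 and 7.91 in WT and 7.56 and 7.58 in KO. The KO values again lay below the WT values, but the differences of -0.19 and -0.33 came to a mean of -0.26 (SE 0.09) with an adjusted p of 0.080. It passed under cyclic loess (adjusted p = 0.010) and when quantile normalization was applied again (0.024). Hlf read 6.71 and 6.74 in WT and 6.62 and 6.69 in KO, a range of 0.12 over the 4 arrays, the narrowest of the 9 members. Its mean difference was -0.07 (SE 0.09, adjusted p = 0.70). The 3 activators of the same family thus differed in size from -0.07 to -0.39, and whether they differed from each other was not tested.

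Nfil3, the repressor at D-boxes, moved the other way. It read 6.27 and 6.04 in WT and 7.21 and 7.02 in KO, so that the lowest KO value exceeded the highest WT value by more than the WT arrays lay apart. The differences were 0.95 and 0.99, or 1.93-fold and 1.98-fold higher. Nfil3 rose by 0.97 on average (SE 0.09, limma adjusted p = 2.1e-05), which placed it 108th among the 11963 genes from the top. The difference at 8 months exceeded that at 2 months by 0.04, or by 0.13 when quantile normalization was applied again. Side by side, the D-box activators stood at -0.07 to -0.39 and the D-box repressor at 0.97 in the same arrays. Of the activators, Tef alone passed the test.

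Among the E-box repressors, Ciart had the widest difference of the set. It read 5.57 and 6.08 in WT and 4.53 and 4.49 in KO, so the KO arrays were close together and the WT arrays were 0.51 apart. KO was 2.06-fold lower at 2 months and 3.02-fold lower at 8 months. Ciart fell by 1.32 on the log2 scale (SE 0.14, limma adjusted p = 5.3e-05) and ranked 24th among all genes from the bottom. Its value is the average of 2 probe sets that carry the symbol. These gave -0.96 and -1.69, and -1.13 and -1.50, at 2 and 8 months, so both were lower at both ages. They differed on age in WT, where the first probe set was 0.83 higher at 8 months and the second 0.19, and in KO, where they were at 0.10 and -0.18.

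Bhlhe40 and Bhlhe41 encode closely related repressors, of which the first passed the test and the second did not. Whether they differed from each other was not tested. Bhlhe40 read 7.41 and 7.39 in WT and 8.03 and 7.74 in KO, with both KO values above both WT values. It was 1.54-fold higher at 2 months and 1.27-fold at 8 months, and rose by 0.48 on average (SE 0.09, limma adjusted p = 0.0044). Bhlhe41 read 4.13 and 4.28 in WT and 4.56 and 4.18 in KO, the single member whose KO and WT values overlapped. Its differences were 0.43 at 2 months and -0.10 at 8 months, with a mean of 0.16 (SE 0.15, adjusted p = 0.56).

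Both effectors of the set fell. Usp2, a deubiquitinating enzyme with strongly rhythmic RNA in liver, read 6.41 and 6.66 in WT and 5.59 and 5.53 in KO. The groups did not overlap, the fold differences were 1.76 and 2.19, and the mean was -0.97 (SE 0.11, limma adjusted p = 9.4e-05). Wee1, whose product phosphorylates and inhibits the mitotic kinase CDK1, read 6.46 and 6.31 in WT and 5.87 and 5.55 in KO. It was 1.51-fold lower at 2 months, just past the 1.5-fold line, and 1.70-fold lower at 8 months, and fell by 0.68 on average (SE 0.11, adjusted p = 0.0010). Of its partners at the G2/M transition, 6 were found and 3 had a level past the filter. None of these 3 passed the test (0 also at an unadjusted p under 0.05), with Cdc25a, a phosphatase that opposes WEE1, at 0.20 and 0.35, Cdc25b at -0.23 and 0.01 and the WEE1-related kinase gene Pkmyt1 at -0.48 and -0.04.

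By size alone, 5 members were at least 1.5-fold apart at 2 months, 2 of them higher and 3 lower in KO, where 6.37% of all genes were (3.98% higher and 2.39% lower). At 8 months 1 member was higher and 3 were lower, where 4.34% of all genes were apart (2.41% and 1.93%). The 4 that were past this line in the same direction at both ages were Nfil3, higher, and Ciart, Usp2 and Wee1, lower, and 2.84% of all genes met that rule (1.78% higher and 1.06% lower). With arrays centred on their medians Wee1 was at -0.55 at 2 months and short of the line, which left 3. Bhlhe40 at 2 months was short of it when quantile normalization was applied again (0.52) and under cyclic loess (0.54). In both cases 1 member was left higher at 2 months. The arrays of the 2 genotypes did not overlap for 8 of the 9 members, 2 with KO above and 6 with KO below. This was also true of 54.8% of all genes (29.1% and 25.7%), so the lack of overlap by itself says little about them. The KO minus WT differences at 2 and at 8 months come from different arrays, and 8 of the 9 members had the same sign in both, as did 66.2% of all genes.

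**Figure D2:**
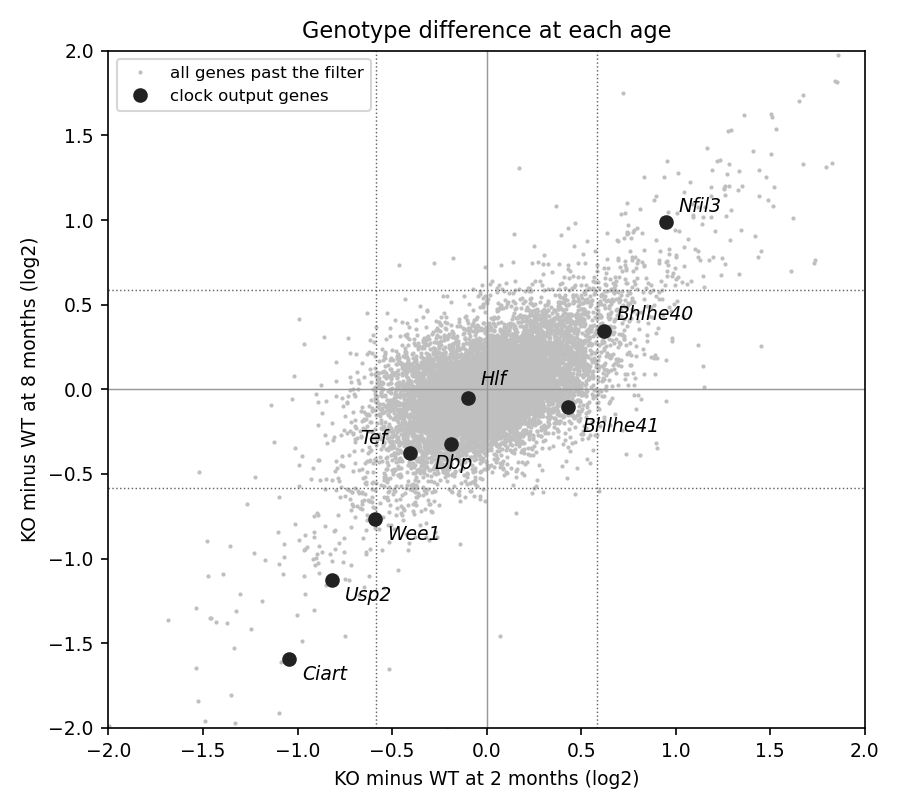
KO minus WT difference at 2 months (horizontal axis, log2) against that at 8 months (vertical axis, log2) for all 11963 genes in grey and the 9 clock output genes in black, with dotted lines at 1.5-fold. Axes end at 2 log2 units, and 37 genes lie outside. Nfil3 lies past the lines at the upper right, Ciart, Usp2 and Wee1 lie past them at the lower left, and Bhlhe41 is the member with opposite signs.

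No member was called for age, and with 1 pooled array per group an age difference could be missed. With the same model 0 of the 9 members passed for age in either direction, and over all genes 1 gene passed, 0.00836% of those tested. At an unadjusted p under 0.05 there were 2 members, Nfil3 with a mean of -0.21 for 8 minus 2 months and Wee1 with -0.24, beside 431 of all genes. No member was 1.5-fold apart between the ages in WT or in KO, against 0.652% of all genes in each. The widest were Ciart in WT, at 0.51, and Bhlhe41 in KO, at -0.38. In the KO-labelled arrays Ciart was at -0.04, Usp2 at -0.06 against 0.25 in WT, and Bhlhe40 at -0.29 against -0.02 in WT. Ciart and Usp2 were therefore higher at 8 months in WT and not in KO, although 1 of the probe sets of Ciart was at 0.10 in KO, and a single array per group allows no test of whether the age difference depended on genotype. Tef, Hlf and Dbp were between 0.02 and 0.16 higher at 8 months in both genotypes.

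**Figure D3:**
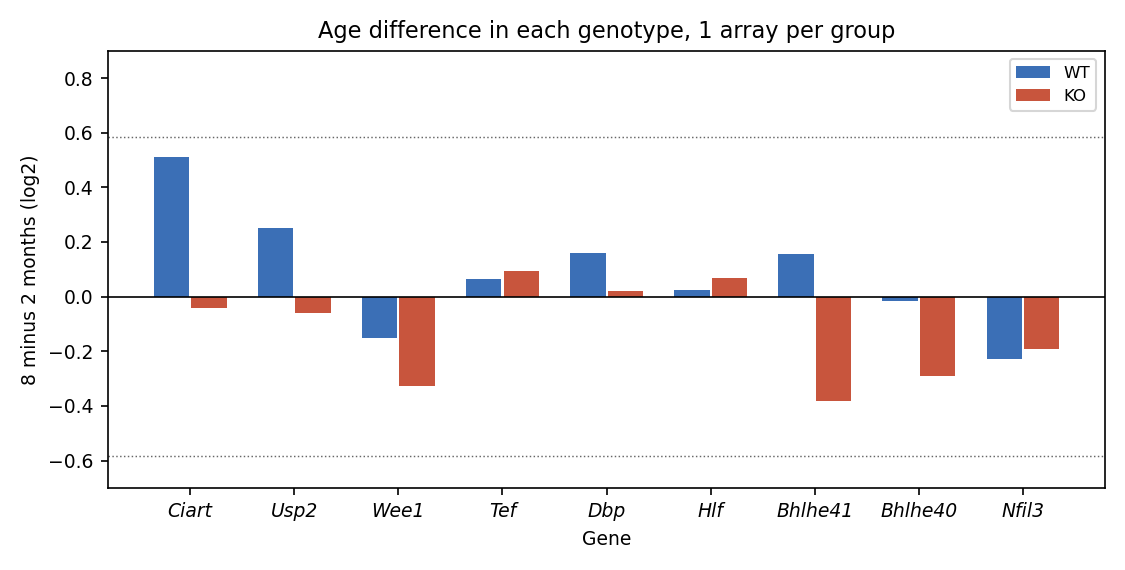
Difference of 8 minus 2 months (log2) for each clock output gene in WT (blue bars) and KO (red bars), from 1 array per group and so without error bars, with dotted lines at 1.5-fold. No bar reaches a dotted line. The widest are Ciart in WT at 0.51 and Bhlhe41 in KO at -0.38.

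The order of the 4 arrays was the same for some members. From low to high, Dbp, Tef and Hlf all ran KO at 2 months, KO at 8 months, WT at 2 months and WT at 8 months. Ciart and Usp2 shared the WT order but had KO at 8 months lowest. Nfil3 and Bhlhe40 both ran from WT at 8 months, through WT at 2 months and KO at 8 months, to KO at 2 months. Wee1 was lower at 8 than at 2 months within each genotype, with both KO values lowest. Neighbours within a genotype, such as the KO values of Ciart at 4.53 and 4.49, cannot be told apart, since no array was repeated.

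The similarity of whole profiles was measured as the Euclidean distance between the 4 log2 values of genes, each centred on its own mean, over the 11963 genes. Such a distance over 4 arrays rests mostly on the genotype difference and says nothing of shared control. Of all genes, 11 were closer to Ciart than Usp2 was, at a distance of 0.39, and 141 were closer to Usp2 than Wee1 was, at 0.45. Tef lay 0.16 from Dbp, with 828 genes closer. The genes most like Ciart were Lrit1 (distance 0.12) and the uridine phosphorylase Upp2 (0.22), which is itself rhythmic in liver. Those most like Usp2 were the bile acid enzyme Cyp8b1 (0.07) and the apolipoprotein Apoa4 (0.08), both lower in KO at each age. Nfil3 was most like the hepatic transcription factor Onecut1 (0.11) and the signal peptidase subunit Sec11c (0.12). For Wee1 they were Aph1c (0.09) and Dnmbp (0.10), for Tef Hyi (0.02) and Zfp213 (0.03), and for Bhlhe40 Zfyve16 (0.03) and Fam149a (0.03).

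The core clock genes had mean differences from -0.64 to 0.46, within the range of the output genes. Of the 12 genes listed, 10 were found and tested. The model called 1 higher and 3 lower and left 6 uncalled, and the medians over the 10 were 0.13 at 2 months and 0.05 at 8 months. Per3, a period gene, was lowest, at -0.59 and -0.70 (SE 0.12, limma adjusted p = 0.0029). Nr1d1, which encodes the repressor REV-ERB alpha, fell with -0.41 and -0.34 (adjusted p = 0.0084), and the cryptochrome Cry2 with -0.27 and -0.46 (0.035). Per1, a period gene that also responds quickly to outside signals, rose with 0.58 and 0.35 (0.017). These calls varied with the settings: with no expression filter the 2 core genes that passed were Nr1d1 and Per3, and with no intensity trend they were Per1 and Per3. Cry2 also missed the threshold under median centring of the arrays (adjusted p = 0.061) and with a filter at the 20th percentile (0.051).

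The activators and the remaining members of the loop stayed within 0.44. Clock was at 0.44 and 0.19 (adjusted p = 0.068, or 0.047 under cyclic loess) and Arntl at 0.29 and 0.28 (0.19). Cry1 was at 0.36 and 0.04, and the receptor gene Rora, whose product activates Arntl, at 0.15 and 0.14. Per2 was at -0.03 and 0.06 and Nr1d2, which encodes REV-ERB beta, at 0.11 and -0.06.

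**Figure D4:**
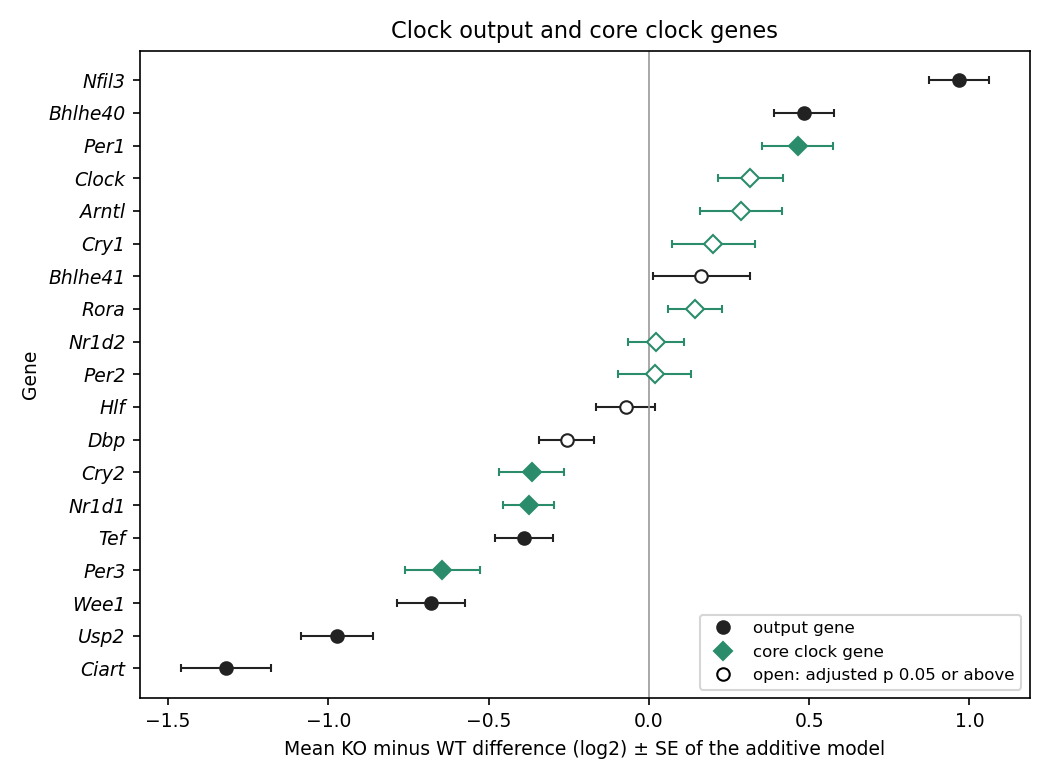
Mean KO minus WT difference (log2) of the 9 clock output genes (black circles) and 10 core clock genes (green diamonds), with the SE of the additive model. Filled symbols passed at an adjusted p of 0.05. The output genes hold both ends, from Ciart at -1.32 to Nfil3 at 0.97, with the core genes between -0.64 for Per3 and 0.46 for Per1.

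Genes known to be driven by the PAR factors did not follow a single direction. Of 6 tested, 1 rose, 1 fell and 4 did not pass. Alas1, the rate-limiting enzyme of heme synthesis, read 9.73 and 9.66 in WT and 10.06 and 10.02 in KO and rose (0.33 and 0.36, limma adjusted p = 0.0096). The xenobiotic receptor gene Nr1i3 (CAR) read 9.60 and 9.57 in WT and 8.64 and 8.62 in KO and fell (-0.96 and -0.95, adjusted p = 3.7e-06). Cyp2b10, a detoxifying enzyme, was at -0.17 and -0.50 (0.056), and Cyp2c50 at 0.37 and -0.07. The medians of these 6 were 0.21 at 2 months and -0.14 at 8 months. The C/EBP factors, which can bind overlapping sites, had 0 of 4 past the limma threshold (1 at an unadjusted p under 0.05), with Cebpb at 0.23 and 0.23, Cebpa at 0.04 and -0.06, Cebpg at -0.02 and -0.07 and Cebpd at -0.03 and -0.35.

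Other rhythmic outputs of the liver also held members that moved in each direction. Of 14 tested, the model called 3 higher and 5 lower, and the medians over the 14 were -0.09 and -0.18. Noct, the gene of the rhythmic phosphatase nocturnin, rose with 1.27 and 1.02, and Coq10b, of coenzyme Q function, with 0.66 and 0.59. The G protein regulator Rgs16 was lowest at -2.90 and -2.63, followed by Upp2 at -0.98 and -1.48. Of 9 tested kinases, ubiquitin ligases and cofactors of the clock, 0 passed in the limma model and 3 had an unadjusted p under 0.05. Among them Btrc, a ubiquitin ligase subunit that acts on period proteins, was at 0.30 and 0.32, Parp1 at 0.28 and 0.18, and the casein kinases Csnk1e and Csnk1d at -0.07 and -0.08 and at 0.06 and -0.09.

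**Figure D5:**
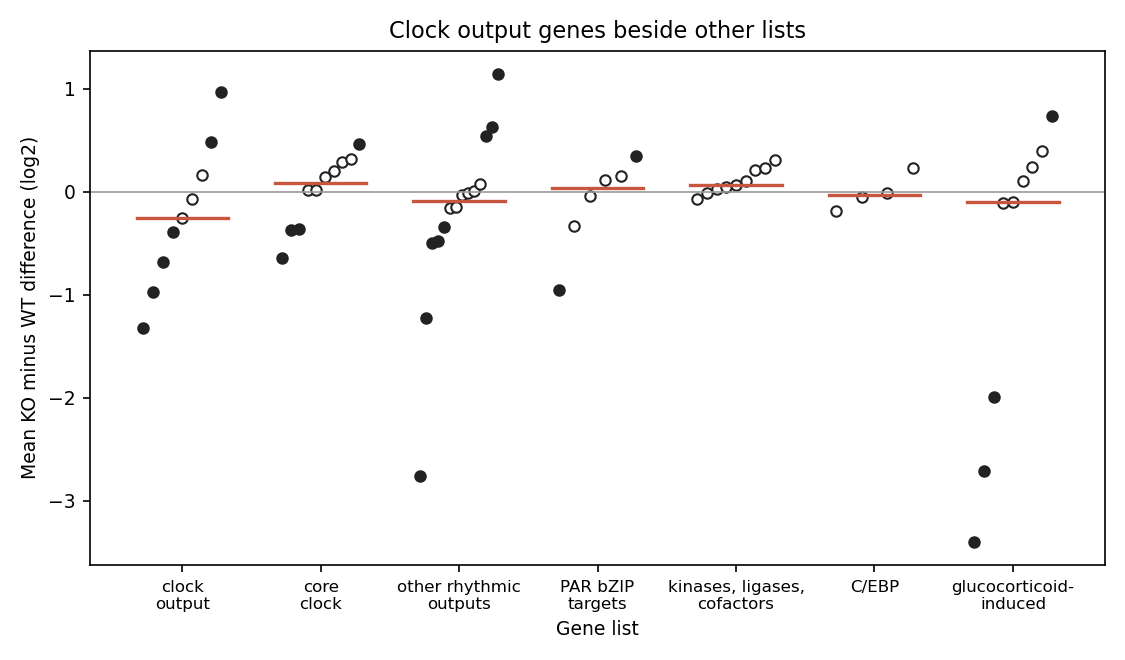
Mean KO minus WT difference (log2) of each tested gene in 7 lists, with filled circles for an adjusted p under 0.05 and a red line at the list's median. The clock output genes run from -1.32 to 0.97 around a median of -0.26, and the core clock genes from -0.64 to 0.46 around a median of 0.08.

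Genes of other groups also differed between the genotype labels on the same arrays, in the second group in both directions. All 11 immediate early genes listed rose, among them Fos by 3.62 and 3.78, Btg2 by 3.41 and 3.54, Zfp36 by 1.00 and 0.78 and Junb by 0.90 and 1.14, and the sum of the 11 log2 levels was 59.5 to 60.4 in WT and 85.8 to 86.1 in KO. Of 9 genes that glucocorticoids induce, 1 rose and 3 fell, with Mt2 at -3.09 and -3.71, Fkbp5 at -2.17 and -3.26, Zbtb16 at a mean of -1.99, Dusp1 at 0.69 and 0.78 and Sgk1 at 0.42 and 0.37. Their sum was 74.4 to 76.5 in WT and 68.4 to 68.9 in KO, lower through Mt2, Fkbp5 and Zbtb16, the 3 that fell, while the medians of the 9 differences were 0.09 and -0.12. Of 6 Kupffer cell markers, 5 were tested and 3 rose (Cd5l, Vsig4 and Timd4). Adgre1 at 0.14 and 0.20 and Clec4f at -0.04 and 0.06 did not pass. Marco, below the filter, was at -0.20 and 0.09. The sum of the 6 was 28.6 to 28.8 in WT and 30.4 to 30.5 in KO. The part of these groups in the differences of the clock output genes was not tested.

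Of the markers of hepatocytes, the 7 measured genes averaged 11.7 to 11.8 on every array, with 0 past the limma threshold (2 at an unadjusted p under 0.05). Markers of B and T cells averaged 2.83 to 3.21, of pancreas 3.34 to 3.49, of adipose tissue 2.96 to 3.27 and of skeletal muscle 3.30 to 3.61, near the filter level. Stellate cell markers had 1 of 6 that rose and 1 that fell, sinusoidal endothelium 0 of 5 and cholangiocytes 0 of 3 past the limma threshold (1 and 0 at an unadjusted p under 0.05), and erythroid genes 1 of 3 that rose. The Y-linked Eif2s3y read 7.04 to 7.43 on all 4 arrays, Uty was at 0.44 and 0.21 and Kdm5d at 0.07 and 0.03. Xist read 4.42 and 3.08 in WT and 2.66 and 2.29 in KO, and whether the pools differed in their share of females, and its part in these results, was not tested.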

How the data were processed

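Total RNA of mouse liver was measured on 4 Affymetrix mouse gene ST arrays. Per the submitters' processing notes, the authors deposited log2 values from RMA, run in Affymetrix Expression Console 1.0v. This method subtracts background, quantile normalizes and combines the probes of each set, and it shrinks the differences of dim genes. The set of arrays normalized together, the annotation and the build are not given in the sources used here. An array has no read depth, and the number of arrays limits the precision.

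Of 35556 probe sets, the 21789 with 1 symbol in the platform table were averaged per gene. Genes above the 40th percentile of mean level entered the additive model of genotype and age (lmFit and eBayes with an intensity trend, limma 3.58.1 in R 4.3.3, adjusted over 11963 genes), which has 1 residual degree of freedom and a prior of 11.3. Tested on 20 simulated sets of these genes, it recovered a median of 91% of 1.5-fold and 100% of 2-fold genotype changes. False calls came to a median of 7.64% and at most 10.6%, more than the adjusted p threshold aims at. Without replicate arrays the simulation cannot include the spread between mice or between pools, so recovery of real genotype changes was not tested. Differences between 2 arrays carry no test.

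The members and lists were chosen with earlier results of these data known. Named are all members and core clock genes found, the 2 highest and 2 lowest tested genes of other lists, and the 2 nearest profiles of each member called, passing over predicted genes and small RNAs. Other genes (Zbtb16, Xist, Timd4, Vsig4, Cd5l, Adgre1, Clec4f and Marco) were named after their values were seen. The alternatives were other filters, normalizations, probe set rules, eBayes settings, models, thresholds and folds.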

Additional observations from a re-analysis of the deposited data

Results flagged for a closer look

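Several genes had genotype differences of opposite sign at the 2 ages, with 1 array per group, so none of these differences between ages was tested. Over all genes the sign was the same at both ages in 66.2%, so a change of sign by itself says little. Only genes named by the rule above were searched for it, so the genes given here are not all that changed sign. Bhlhe41 was higher in KO at 2 months and lower at 8 months, and the difference moved by -0.536 on the log2 scale between the ages. The same held for Cyp2c50 (-0.441), Nr1d2 (-0.168), Csnk1d (-0.151) and Cebpa (-0.106). Per2 and Cdc25b were lower in KO at 2 months and higher at 8 months, with moves of 0.0932 and 0.241. For Per2, Nr1d2, Csnk1d and Cebpa the differences at either age were no wider than 0.11, so their signs carry little weight.

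Ciart and Usp2 had age differences of opposite sign in the 2 genotypes, but those in KO were small. Both were higher at 8 months in WT, and in KO they were at -0.04 and -0.06. Usp2 in KO was at -0.01 when quantile normalization was applied again. KO minus WT for the age difference was -0.552 for Ciart and -0.313 for Usp2. In KO the probe sets of Ciart differed in sign, at 0.10 and -0.18. These differences too were not tested.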

How the results depend on the processing

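The genotype calls of Nfil3, Ciart, Usp2, Wee1 and Bhlhe40 were kept under all 10 alternatives run for each, but not all 10 could remove a call. The threshold of 0.10 is looser and uses the same fit, so no call could be lost under it. The probe set rule left the effects of Nfil3, Usp2, Wee1 and Bhlhe40 unchanged, since each has 1 probe set. Effects of the 5 members were 0.91 to 1.00, -1.34 to -1.29, -1.02 to -0.94, -0.73 to -0.65 and 0.43 to 0.51. Tef lost its call in 2 of the 10. Dbp gained one in 3, of which 1 was the threshold of 0.10, where its limma adjusted p stayed at 0.080. No effect of a member past the threshold reversed. The 6 members called came to within 1.5 times that number under each alternative, and 0 members passed for age under each. With a 2-fold line, 1 member was apart at 2 months, 2 at 8 months and 1 at both ages. With a line below 1.5-fold, 7 were apart at 8 months, 1 with age in WT and 2 with age in KO. The share of all genes past the 2-fold or the lower line is not given, so whether these counts are unusual was not tested. When the probe set with the highest mean stood for a gene, 1 member (Ciart, 0.83) was 1.5-fold apart with age in WT. Core clock calls fell from 4 to 2 without the expression filter and to 2 without the intensity trend. Over all genes, 752 of 19938 (3.77%) passed for genotype without the filter, against 1325 of 11963 (11.1%) as reported. Of the same 11963, 846 (7.07%) passed without the trend and 1967 (16.4%) under cyclic loess. Apart from the construction of each alternative, the cause of these shifts was not tested. No paired analysis was possible because each group is 1 array and the labels carry no replicate numbers. Among the single-gene values, 343 of the alternatives stayed within their limits, 12 moved, 2 weakened and 3 strengthened. A model effect stayed if its call did not change, and a difference if it moved by less than the gene's residual SD in the additive model. Some of the 343 could not change, such as those of the probe set rule for members with 1 probe set. Of the 3 that strengthened, 1 was Dbp at the threshold of 0.10.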
